A study of Homo sapiens with 9 samples.

Results

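Keratins are the intermediate filament proteins of epithelial cells. The genes examined here are the 55 rows of the deposited count table that are annotated as protein-coding and carry the symbol KRT followed by a digit, of 58735 genes in all. By their standard classification 29 of them encode acidic type I chains and 26 encode basic or neutral type II chains.

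The cells were OVCAR3, an established human line from ovarian cancer, grown in RPMI medium with fetal bovine serum and bovine insulin and sequenced after 72 h in culture. All 9 libraries came from cells carrying a short hairpin RNA, a small transcript that the cell turns into a guide against matching mRNAs. The control group carried a scramble hairpin and is labelled as wild type, and the other groups, labelled as GPX3 knock-down, carried hairpin number 76 or 78 against GPX3 (sh76 and sh78 below), with 3 replicates in each group. GPX3 encodes a secreted glutathione peroxidase, and the study asked what it does in ovarian cancer cells. The vector, the promoter that drives the hairpins and whether the replicates were separate transductions are not given in the sources used here, so p-values measure the spread between these samples, which may be technical.

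A keratin filament is built from heterodimers of a type I and a type II chain, so a cell needs members of both types. Simple epithelia, the single-layered linings of ducts and cavities, use KRT8 and KRT18, usually with KRT7 and KRT19. Stratified epithelia use KRT5 with KRT14 or KRT15 in the basal layer. KRT4 with KRT13 serves the layers above the basal one in mucosae, and KRT6A, KRT16 and KRT17 are known as keratins of wound edges and stressed epithelium. A further group builds hair and nail. In ovarian carcinoma, KRT7 is a routine diagnostic marker. Type I genes lie together on chromosome 17 and type II genes on chromosome 12.

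In these data 28 type I genes lay on the minus strand of chromosome 17 between 40654665 and 41624842 (GRCh38, GENCODE release 29). The remaining type I gene, KRT18, lay on the plus strand of chromosome 12 (52948871 to 52952901), beside KRT8. The 26 type II genes were all on chromosome 12, 24 of them on the minus strand. Only KRT7 and KRT86 of the type II genes were on the plus strand.

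Libraries held 14652965 to 21327562 counts, and 4.242% to 5.164% of them fell on mitochondrial genes. GPX3 itself had 133 ± 34.8 CPM (counts relative to library size, scaled with the TMM factors of edgeR; SD, n = 3) with scramble, 55.9 ± 0.852 with sh76 and 30.6 ± 4.01 with sh78. Against the cell type label, all 13 markers of ovarian carcinoma epithelium passed the count filter, 4 of them being the keratins KRT7, KRT8, KRT18 and KRT19. Their summed FPKM (fragment counts divided by gene length and library size) was 3170 to 3550 with scramble, 3000 to 3470 with sh76 and 2640 to 2940 with sh78. With scramble, KRT8, KRT19, KRT18 and KRT7 gave most of this sum, at mean FPKM of 804, 679, 673 and 313. The sum is therefore not independent of the keratin results below. In the order scramble, sh76, sh78, the summed FPKM of 8 fibroblast markers was 2.82 to 4.02, 3.12 to 5.68 and 3.48 to 4.77. That of 4 endothelial markers was 2.17 to 2.48, 2.43 to 3.18 and 3.15 to 4.29, and that of 5 leukocyte markers at most 0.942 in any library. These other cell types were thus close to 0 beside the epithelial markers. In the same order, the rise in the endothelial sum lay mostly in KDR, at 1.42, 2.07 and 2.85 FPKM. VWF stood at 0.79, 0.693 and 0.76, PECAM1 at 0.0445, 0.046 and 0.0253, and CDH5 at 0.0654, 0.0665 and 0.133. The part of the KDR rise in the keratin results was not tested. The 7 keratinocyte markers, which include KRT5 and KRT10, summed to at most 26.6, 31.5 and 25.7 FPKM and to at least 20.9. Of them, KRT1 and IVL had 0 counts in every library, and KRT14 had at most 2. In bulk RNA, fewer cells that express a keratin and less of its mRNA per cell cannot be told apart.

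Several keratins are close copies of each other, and reads that match more than 1 gene may be lost or misplaced. KRT6A, KRT6B and KRT6C are shown because KRT6A carries the largest well-counted difference below. The coding sequence of KRT6A (1692 bases) was 97.5% identical to that of KRT6B and 97.9% identical to that of KRT6C. The stretch below was chosen as the 60-base window, within 1 coding exon, where the most positions differ. It is therefore less alike among the copies than the coding sequence as a whole. The following 60 bases lie in coding exon 2 on the minus strand of chromosome 12 (GRCh38), written 5′ to 3′ with the 9 positions that differ among the 3 genes in capitals.
KRT6A, chr12:52491555-52491614: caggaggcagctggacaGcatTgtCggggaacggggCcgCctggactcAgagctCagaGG
KRT6B, chr12:52450439-52450498: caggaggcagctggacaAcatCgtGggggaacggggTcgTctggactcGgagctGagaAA
KRT6C, chr12:52472099-52472158: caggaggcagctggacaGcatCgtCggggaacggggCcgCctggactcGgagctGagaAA
KRT6B differed from KRT6A at 9 of these bases and KRT6C at 5. Of the 100-base windows in the main KRT6A transcript, 18.2% also occurred in another annotated gene, most of them in KRT6C.

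KRT16 is shown against KRT14 and KRT17, its nearest relatives in the type I cluster, because KRT16 differed between the hairpins while KRT14 was almost absent. As a share of the longer coding sequence of each pair, KRT16 was 86.8% identical to KRT14 and 72.4% identical to KRT17. Of the aligned bases, 1232 of 1389 and 1027 of 1296 were identical. The 60 bases below were chosen in the same way, counting positions where either KRT14 or KRT17 differs. They lie in coding exon 1 on the minus strand of chromosome 17, with the 25 positions that differ among the 3 genes in capitals.
KRT16, chr17:41612165-41612224: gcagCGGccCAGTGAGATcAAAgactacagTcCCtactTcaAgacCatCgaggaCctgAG
KRT14, chr17:41586317-41586376: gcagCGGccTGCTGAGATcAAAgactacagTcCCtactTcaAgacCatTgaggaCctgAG
KRT17, chr17:41624085-41624144: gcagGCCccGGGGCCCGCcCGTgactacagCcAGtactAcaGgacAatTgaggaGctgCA
KRT14 differed from KRT16 at 4 of these bases and KRT17 at 24. The choice of window thus rested mostly on KRT17. KRT14 is more like KRT16 here than over the coding sequence as a whole. Of the KRT16 windows 7.2% occurred in another gene, and of the KRT17 windows 0.4%. KRT19, KRT15, KRT4, KRT10, KRT78, KRT80 and KRT83 shared none. The hair keratins KRT81 and KRT86 shared 30.3% and 28.3% of theirs, mostly with each other.

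Of the 55 keratins, 13 had 0 counts in all 9 libraries. They were 10 type I genes and 3 type II genes, among them KRT1, the type II keratin of the outer epidermis. Another 23 had some counts but at most 15 in any library and did not pass the count filter. Among these, KRT14, the basal-layer partner of KRT5, had at most 2 counts in a library, and KRT20, a keratin of gut epithelium, at most 3. KRT75, a hair-follicle keratin, had 7, 14 and 13 counts with sh78, against 1, 0 and 3 with scramble. KRT40, a hair keratin, had 8, 8 and 9 counts with sh78 and 2 in each scramble library. These last 2 genes were picked out after their counts were seen, and both failed the count filter. KRT75 was called with sh78 against scramble when no filter was applied and when sh76 replicate 3 was left out. KRT40 was called for sh78 against sh76 when no filter was applied. The 19 keratins that passed the count filter were 9 type I genes (KRT10, KRT13, KRT15, KRT16, KRT17, KRT18, KRT19, KRT23 and KRT38) and 10 type II genes (KRT4, KRT5, KRT6A, KRT7, KRT8, KRT78, KRT80, KRT81, KRT83 and KRT86). KRT13, KRT16 and KRT38 lay under the level of the filter (0.589 CPM) in every sh78 library and passed through the other groups, so their selection favoured a lower value with sh78.

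The keratins of simple epithelia made up most of the keratin mRNA. In scramble libraries the deposited FPKM was 804 ± 68.9 for KRT8 (SD, n = 3), 679 ± 33 for KRT19, 673 ± 77 for KRT18 and 313 ± 29.1 for KRT7. KRT19 and KRT18 did not differ beyond their spread, whereas KRT7 lay below the other three. Together these 4 genes made up 94.5% ± 0.551 of all keratin FPKM with scramble, 92.9% ± 0.577 with sh76 and 93.9% ± 0.8 with sh78. The next gene, KRT4, a type II keratin of mucosal layers above the basal one, stood at 58.2 ± 13.2 FPKM. KRT80 was at 33.2 ± 5.31, KRT10 at 15.6 ± 1.7 and KRT6A at 10.5 ± 1.55, and KRT23, KRT5, KRT15 and KRT17 lay between 2.37 and 8.99. The other 7 tested keratins had between 0.281 FPKM (KRT78) and 1.16 FPKM (KRT83) with scramble.

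The order depends on the gene length used. The deposited FPKM divides by all annotated exon bases of a gene, 6881 for KRT8 against 1882 in its main transcript. Per kilobase of main transcript, KRT8 stood at 2940 ± 229 on the same scale with scramble, above KRT18 at 1390 ± 148 and KRT19 at 1140 ± 37.1. With sh76 KRT19, at 1470 ± 68.7, was above KRT18, at 1100 ± 95.8, and with sh78 they stood at 920 ± 83.3 and 1010 ± 59.2. Differences between groups for the same gene are not affected by this choice.

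**Figure D1:**
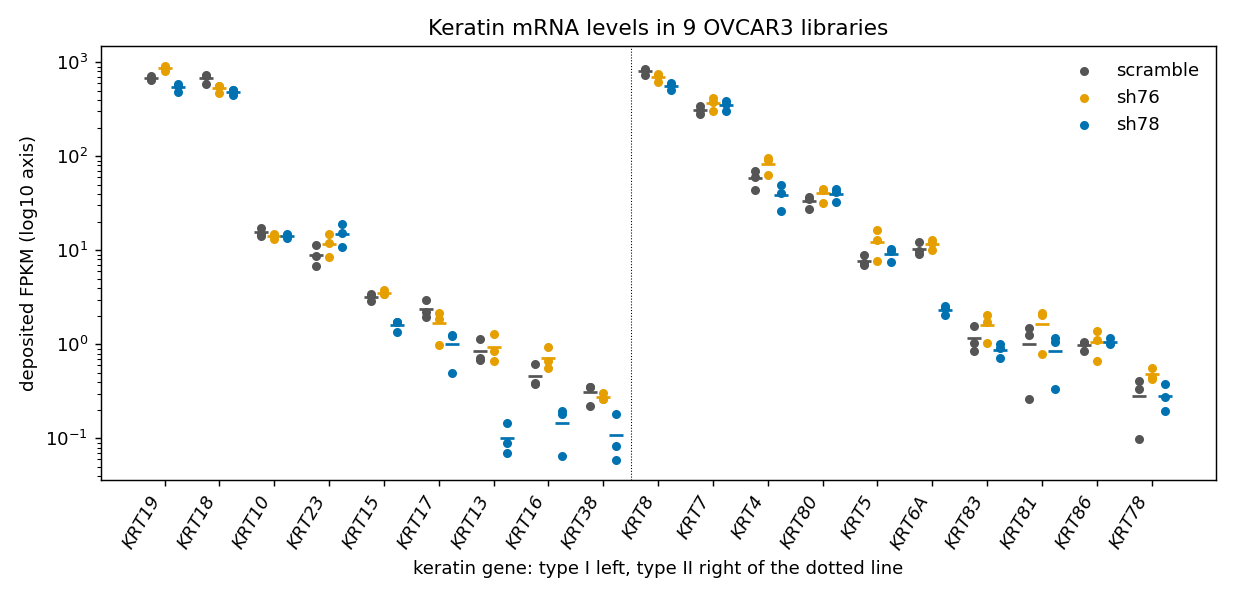
Deposited FPKM of the 19 tested keratins on a log10 axis, type I on the left and type II on the right of the dotted line; each point is a library and each bar the mean of 3. KRT8, KRT18, KRT19 and KRT7 lie above 280 FPKM in all libraries, and the sh78 points of KRT6A, KRT15, KRT13 and KRT16 lie below all other points of the same gene. KRT13 and KRT16 passed the count filter only through the other groups.

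The replicates of different groups that share a number had keratin levels that moved together. In 13 of the 19 tested keratins (68.4%) replicate 1 had the lowest CPM in all 3 groups, KRT8, KRT18, KRT19, KRT7, KRT4 and KRT80 among them. The same held for 15% of all 17023 genes tested. KRT13 was the 1 keratin with its highest value in replicate 1 of every group. What the numbers stand for is not given in the labels. A fit that takes the replicate number as a block was run for this reason, and its values are given where they change a call. The comparisons of sh76 and of sh78 with scramble use the same 3 control libraries, and the direct comparison of the hairpins uses the sh76 and sh78 libraries again.

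With sh76, 1 of the 19 tested keratins was called at an adjusted p under 0.05 (edgeR's quasi-likelihood test, Benjamini-Hochberg over all genes), against 3.58% of all genes tested. It was KRT19, which rose, against 1.43% of all genes that were called higher. The median log2 fold change of the 19 keratins was 0.24, with 14 above 0, and that of all genes was 0.01. Type I members had a median of 0.16 and type II members of 0.39. With the replicate block 10 keratins were called, 7 higher and 3 lower, while 20.4% of all genes were called.

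With sh78, 6 of the 19 were called, against 4.41% of all genes, and all 6 were lower, against 2.56% of all genes called lower. They were KRT6A, KRT13, KRT15, KRT8, KRT18 and KRT19, that is 4 of 9 type I members and 2 of 10 type II members. Without KRT13, KRT16 and KRT38, the type I members whose selection favoured a low sh78 value, 5 of 16 were called. The median log2 fold change was then -0.39 over 6 type I members and -0.15 over 10 type II members, against 0.01 over all genes. With those 3 the type I median was -1.0. Whether the types differ was not tested. With the replicate block 12 were called, 3 higher and 9 lower, against 19.9% of all genes. On log2 FPKM without a filter on low values (limma), 2 were called, KRT6A and KRT15.

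The hairpins also differed from each other. For sh78 against sh76, 5 of 19 keratins were called, against 3.7% of all genes, and all 5 were lower with sh78, against 1.72% of all genes called lower. They were KRT6A, KRT13, KRT15, KRT16 and KRT19. Without KRT13, KRT16 and KRT38, 3 of 16 were called, and the median was -0.4 in type I and -0.61 in type II members, against 0.00 over all genes. With those 3 the type I median was -0.79, so the order of the types depends on them. With the block 12 were called, 1 higher and 11 lower, against 18.3% of all genes.

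**Figure D2:**
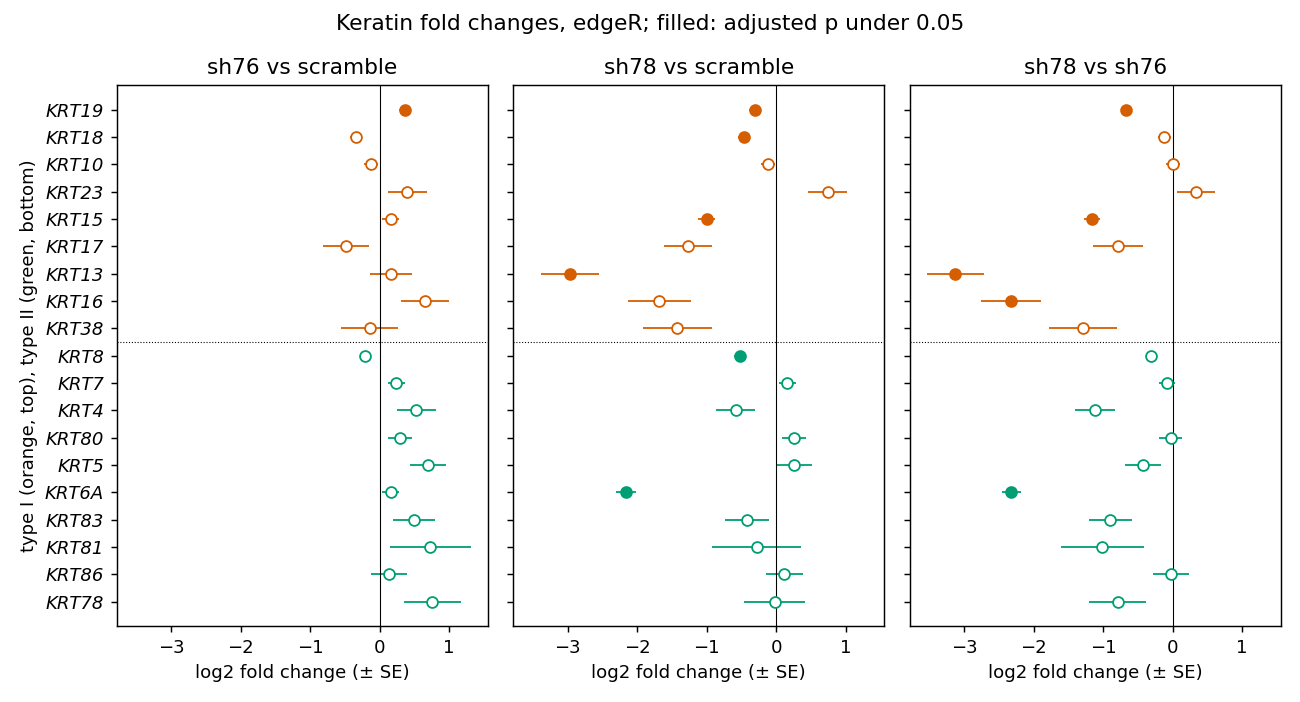
Log2 fold change with its SE for each tested keratin (edgeR, 3 libraries a group), type I above and type II below the dotted line; filled points passed the adjusted p threshold of 0.05. KRT19 is filled on the right of 0 for sh76 and on the left for sh78, and all 6 filled points of sh78 against scramble lie left of 0.

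KRT8, the most abundant type II keratin, had 5030, 5810 and 5850 CPM in the control libraries, 4310, 4970 and 5140 in those of sh76, and 3540, 4120 and 3970 in those of sh78. All sh78 libraries lay below all scramble and all sh76 libraries. KRT8 fell with sh78 by 0.52 on the log2 scale (SE 0.08, adjusted p 0.00259 by edgeR), to 69.7% of the control level. With sh76 its log2 fold change was -0.21 (SE 0.08, adjusted p 0.195), and the libraries overlapped. This difference was called with the replicate block (adjusted p 3.87e-05) and without the count filter. Between the hairpins the log2 difference was -0.31 (SE 0.08), with an adjusted p of 0.0546, or 2.07e-08 with the block. It was also called by DESeq2, without the count filter and from only the groups compared. Leaving out scramble replicate 1 or sh76 replicate 1 gave the call as well.

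KRT18 is the type I partner of KRT8. It had 1900, 2310 and 2330 CPM with scramble, 1520, 1810 and 1820 for sh76, and 1450, 1650 and 1630 for sh78. Every hairpin library was below every scramble library. KRT18 fell with sh78 by 0.46 on the log2 scale (SE 0.09, adjusted p 0.0105), although without scramble replicate 2 the adjusted p was 0.0535. For sh76 its log2 fold change was -0.34 (SE 0.09), just outside the threshold at an adjusted p of 0.0573, and inside it with the block (4.02e-09). The sh76 difference was also called by DESeq2, without the count filter, and without scramble replicate 1 or sh78 replicate 1. The hairpins gave a log2 difference of -0.12 (SE 0.09, adjusted p 0.585), called only with the block (adjusted p 0.0267). Within the replicate numbers the ratio of sh76 to scramble was -0.32, -0.35 and -0.35 on the log2 scale.

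KRT8 and KRT18 are read in opposite directions, overlap at their 5′ ends and share 525 annotated exon bases, 16.3% of those of KRT18 and 7.6% of those of KRT8. The libraries carried no strand, so reads in that stretch cannot be assigned to either gene. Counts summed with the annotated pseudogenes of each gene gave the same call for sh78.

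KRT19, a type I keratin that lacks most of the tail domain, moved in opposite directions with the hairpins. It had 1530, 1580 and 1670 CPM with scramble, 1910, 2060 and 2170 for sh76, and 1140, 1310 and 1400 for sh78. The 3 groups did not overlap. KRT19 rose with sh76 by 0.36 on the log2 scale (SE 0.08, adjusted p 0.0177), to 1.28 times the control, and fell with sh78 by 0.31 (SE 0.08, adjusted p 0.03), to 80.5% of it. The difference between the hairpins was -0.67 (SE 0.08, adjusted p 0.000315) and was called without any single library.

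Both comparisons of KRT19 with the control were close to the threshold. The rise with sh76 was not called without scramble replicate 2, sh76 replicate 2 or sh76 replicate 3, with an adjusted p of up to 0.0801. The fall with sh78 was not called without scramble replicate 2, scramble replicate 3, sh76 replicate 2, sh78 replicate 1 or sh78 replicate 2, with an adjusted p of up to 0.0983. Neither was called from log2 FPKM with limma. Within the replicate numbers the log2 ratio of sh76 to scramble was 0.32, 0.38 and 0.38, and that of sh78 to scramble was -0.42, -0.27 and -0.26.

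KRT7, the type II keratin used to mark ovarian carcinoma, was not called in any of the 3 comparisons. It had 1170, 1280 and 1400 CPM with scramble, 1270, 1570 and 1720 for sh76, and 1250, 1470 and 1580 for sh78. The groups overlapped. Its log2 fold change was 0.24 (SE 0.12, adjusted p 0.325) with sh76 and 0.16 (SE 0.12, adjusted p 0.565) with sh78, and both were called with the block (2.14e-05 and 0.00391). Without the filter on low counts the sh76 difference was called as well. KRT7 shares 282 exon bases with its antisense gene KRT7-AS, which these unstranded counts cannot separate.

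Summed over all members, type I keratins had 1380 ± 109 FPKM with scramble, 1430 ± 110 with sh76 and 1070 ± 92.8 with sh78. Type II keratins had 1230 ± 117, 1210 ± 150 and 1000 ± 102 in the same order. The type I sum was 959.5 to 1132 in the sh78 libraries and at least 1263 in all others, whereas the type II sum overlapped at its edge: sh78 ran up to 1065 and sh76 began at 1047. As a share of all counts, keratins took 1.11% ± 0.0839 with scramble, 1.08% ± 0.0923 with sh76 and 0.86% ± 0.0673 with sh78.

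The ratio of type I to type II FPKM was 1.15, 1.12 and 1.11 in the 3 controls, 1.25, 1.16 and 1.14 for sh76, and 1.09, 1.04 and 1.07 for sh78. The sh78 libraries lay below the others, and the scramble and sh76 libraries overlapped. Per main transcript length, the mean ratios were 0.674, 0.724 and 0.66, so which type is in excess depends on the length used.

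The makeup of each type also differed between the groups. KRT19 made up 49.2% ± 2.08 of type I FPKM with scramble, 60.7% ± 1.2 with sh76 and 51.1% ± 1.18 with sh78. The share of KRT18 was 48.6% ± 2.05, 37.0% ± 1.11 and 45.8% ± 1.15. With sh76, therefore, KRT19 was the larger of these type I genes in every library, while with scramble they took shares that overlapped. All shares here use the deposited FPKM. Per kilobase of main transcript, KRT18 stood above KRT19 with scramble, at 1390 ± 148 against 1140 ± 37.1. Among type II genes, KRT8 made up 65.4% ± 1.14 with scramble, 57.2% ± 1.93 with sh76 and 56% ± 1.7 with sh78. KRT7 made up 25.4% ± 0.723, 30.2% ± 0.954 and 34.7% ± 1.42. The KRT7 share was higher in all 6 hairpin libraries than in any control, and the KRT8 share lower.

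**Figure D3:**
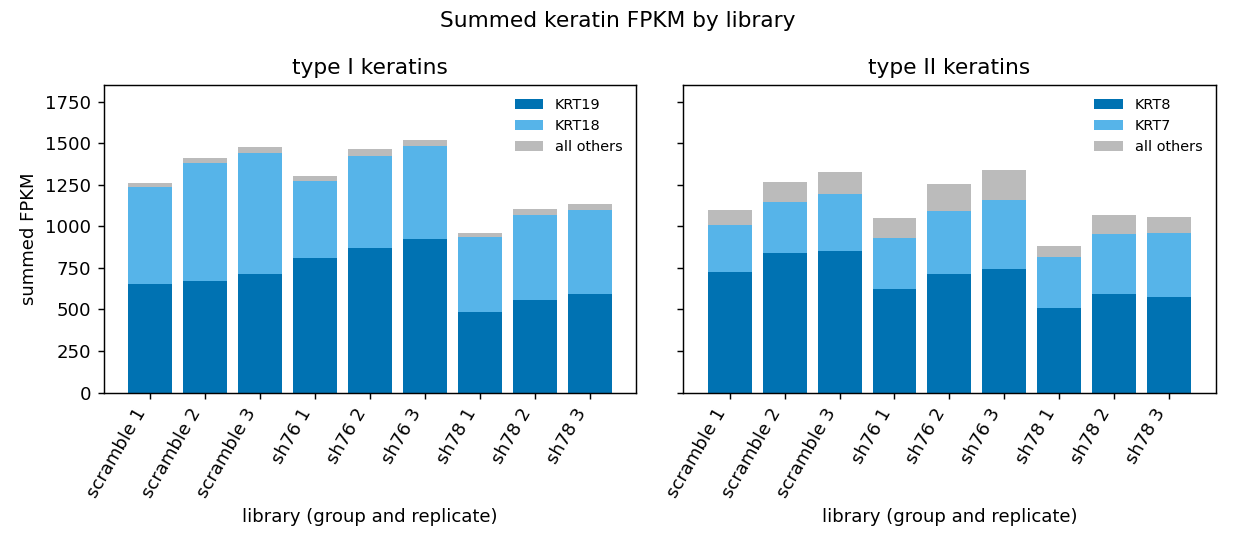
Summed FPKM of type I (left) and type II (right) keratins in each of the 9 libraries, split into the 2 most abundant genes of each type and all others. The type I bars of sh78 reach 959.5 to 1132, below the other 6 libraries, and KRT19 takes the larger part of the type I bar in all sh76 libraries.

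Ratios of textbook partners were compared per library. KRT8 to KRT18 stood at 1.2 ± 0.0371 with scramble, 1.31 ± 0.0227 with sh76 and 1.15 ± 0.0163 with sh78. The sh76 values (1.29 to 1.33) lay above all others, and each sh78 value lay at or below 1.17, under the lowest scramble value of 1.18. KRT7 to KRT19 was 0.46 ± 0.0211, 0.423 ± 0.0379 and 0.637 ± 0.0111. Here the sh78 libraries (0.624 to 0.644) lay above all others, and scramble and sh76 overlapped. The ratio of KRT5 to KRT14 was not formed, because KRT14 was not tested.

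KRT6A, the type II keratin of wound edges and stressed epithelium (chromosome 12, 52487174 to 52493257), had 27.2, 29.4 and 35.7 CPM with scramble and 35.2, 30.2 and 37.6 with sh76. With sh78 it had 6.09, 7.08 and 7.53 CPM, from 103 to 116 counts a library. The sh78 values stood far below the other groups, which overlapped. KRT6A fell with sh78 by 2.16 on the log2 scale (SE 0.14, adjusted p 1.44e-06), to 22.4% of the control, and for sh76 its log2 change was 0.16 (SE 0.12, adjusted p 0.552). Against sh76 the difference was -2.32 (SE 0.14, adjusted p 1.57e-06). Summing KRT6A with its copies KRT6B and KRT6C gave 433, 503 and 634 counts with scramble and 121, 109 and 125 with sh78, and the same calls.

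KRT16 and KRT17 are type I partners of KRT6A. KRT16 had 0.964, 0.939 and 1.55 CPM with scramble, 1.42, 1.65 and 2.34 for sh76, and 0.162, 0.481 and 0.455 for sh78. The sh78 values came from 3, 7 and 7 counts. All sh78 values were below all others. KRT16 was lower with sh78 than with sh76 by 2.33 on the log2 scale (log2 -2.33, SE 0.43, adjusted p 0.0078). Against scramble its log2 fold change was -1.68 (SE 0.45) with an adjusted p of 0.0509, or 0.00383 with the block. DESeq2 and the fit without the count filter called it as well.

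KRT17 was at 7.47 ± 1.63 CPM with scramble, 5.31 ± 1.92 with sh76 and 3.15 ± 1.38 with sh78. Its log2 fold change with sh78 was -1.27 (SE 0.35, adjusted p 0.0748), and it was called with the block (5.36e-07) and by DESeq2. The same call came without the count filter, from only the groups compared and without sh76 replicate 1. With the block KRT17 was also called lower with sh76 than with scramble (log2 -0.51, adjusted p 0.0216) and lower with sh78 than with sh76 (log2 -0.78, adjusted p 0.00215). The difference between the hairpins was also called without the count filter. All sh78 libraries were below all scramble libraries. The 17 rows of KRT14, KRT16, KRT17 and their annotated pseudogenes were also summed, and that sum was called lower in sh78 than in sh76. It was not called for either hairpin against scramble. The pseudogene KRT17P1 was part of the sum, with 16, 35 and 32 counts in the sh76 libraries, 0, 0 and 5 with scramble and 0 in each sh78 library. It therefore adds to the difference between the hairpins, and its part in that call was not tested. Ratios of KRT6A to KRT16 rested on few counts and varied widely, from 12.4 to 31.8 within sh78.

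KRT13, the type I keratin of mucosal layers above the basal one, had 3.34, 2 and 2.07 CPM with scramble and 3.82, 2.52 and 1.96 with sh76. With sh78 it had 0.431, 0.206 and 0.26 CPM, from 8, 3 and 4 counts. KRT13 fell with sh78 by 2.97 on the log2 scale (SE 0.42, adjusted p 0.00114), to 12.8% of the control, and its log2 difference from sh76 was -3.13 (SE 0.41, adjusted p 0.00089). The few counts leave the size imprecise, and 14.8% of its 100-base windows also occur in an antisense gene with 0 counts.

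KRT4, the type II partner of KRT13, stood at 58.2 FPKM with scramble, against 0.842 for KRT13. KRT4 had 148, 200 and 233 CPM with scramble, 214, 303 and 324 for sh76, and 87.3, 166 and 135 for sh78. The sh78 libraries lay below all sh76 libraries but overlapped scramble. The log2 difference between the hairpins was -1.12 (SE 0.29) with an adjusted p of 0.0953, or 0.00184 with the block. DESeq2 and limma on log2 FPKM with the filter also called it, without a block. Against scramble the values were 0.53 with sh76 (SE 0.28, adjusted p 0.392) and -0.58 with sh78 (SE 0.28, adjusted p 0.359), both called only with the block (0.0258 and 0.0203).

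KRT15, a type I keratin of basal and progenitor cells, had 24.5, 23.2 and 20.2 CPM with scramble, 24.4, 26.9 and 24.6 for sh76, and 9.59, 12.2 and 12.3 for sh78. The sh78 libraries did not overlap the others. KRT15 fell with sh78 by 1.0 on the log2 scale (SE 0.12, adjusted p 0.000439), to 50.1% of the control, and for sh76 its log2 change was 0.16 (SE 0.12, adjusted p 0.53). The log2 difference between the hairpins was -1.16 (SE 0.12, adjusted p 0.00026).

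KRT5, the basal type II keratin, had 33.3 ± 4.53, 53.5 ± 19 and 39.8 ± 6.59 CPM and was not called in any of the 3 comparisons. Its highest values were 55.8 and 71.2 CPM in sh76 replicates 2 and 3. Its log2 fold change with sh76 was 0.69 (SE 0.26, adjusted p 0.209), and it was called with the block (log2 0.66, adjusted p 0.0197). Without sh76 replicate 1, KRT5 was called higher with sh76 than with scramble (log2 0.93, adjusted p 0.00658) and lower with sh78 than with sh76 (log2 -0.68, adjusted p 0.037).

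The remaining tested keratins were not called in any comparison without the block. KRT80, a type II keratin found in many epithelia, was at 145 ± 22.8 CPM with scramble, 177 ± 31.2 with sh76 and 174 ± 27.8 with sh78. Its log2 fold changes of 0.29 and 0.26 were both called with the block (4.67e-06 and 2.26e-05). KRT23, a type I keratin, was at 26.2 ± 6.45, 34.6 ± 9.47 and 44.1 ± 11.9 CPM. Its log2 fold change with sh78 was 0.74 (SE 0.28, adjusted p 0.208; 0.000714 with the block), the largest positive value among the 19 in that comparison. With the block KRT23 was also called with sh76 (log2 0.39, adjusted p 0.0368) and between the hairpins (log2 0.35, adjusted p 0.0494). KRT10, the type I partner of KRT1 in epidermis, stayed between 28.7 and 37.5 CPM in all libraries.

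The tested hair keratins KRT81, KRT83, KRT86 and KRT38 each had at most 87 counts in a library. KRT81 ranged from 0.514 to 2.87 CPM among the scramble libraries alone, and KRT86 had mean levels of 2.35, 2.57 and 2.56 CPM. KRT38 had 2 to 8 counts in the sh78 libraries and 9 to 15 in the others. KRT78, a low type II keratin, was lowest in scramble replicate 1 at 0.321 CPM. None of these 5 genes was called without the block. With it, KRT81 (adjusted p 0.00357) and KRT83 (0.00994) were called lower with sh78 than with sh76, and KRT81 higher with sh76 than with scramble (0.0175).

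By position, KRT13, KRT15 and KRT19 are consecutive protein-coding genes on chromosome 17 (41500981 to 41528308, 27.3 kb), and all fell with sh78. Their log2 fold changes were -2.97, -1.0 and -0.31. KRT16 and KRT17, further along the cluster, had values of -1.68 and -1.27, and KRT23 and KRT10, at its other end, of 0.74 and -0.12. KRT38, the tested keratin before KRT13, had -1.42 and was not called, nor were KRT16 and KRT17. KRT13, KRT16 and KRT38 passed the count filter only through the scramble and sh76 libraries, so their selection favoured a low sh78 value. The fall of KRT19 was called in 4 of the 9 fits with a library left out. Of 11 other tested protein-coding genes beside or inside the type I cluster, 2 were called with sh76 and 1 with sh78. The shares of all genes called were 3.58% and 4.41%. The 1 called with sh78 was EIF1, a translation initiation factor gene (log2 -0.35, SE 0.06, adjusted p 0.00566), which was also called with sh76 (log2 -0.26, adjusted p 0.0367). IGFBP4, an insulin-like growth factor binding protein gene beside the cluster, was called with sh76 (log2 -1.08, SE 0.13, adjusted p 0.00189). None of the 10 genes flanking the type II cluster was called in any of the 3 comparisons by edgeR.

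**Figure D4:**
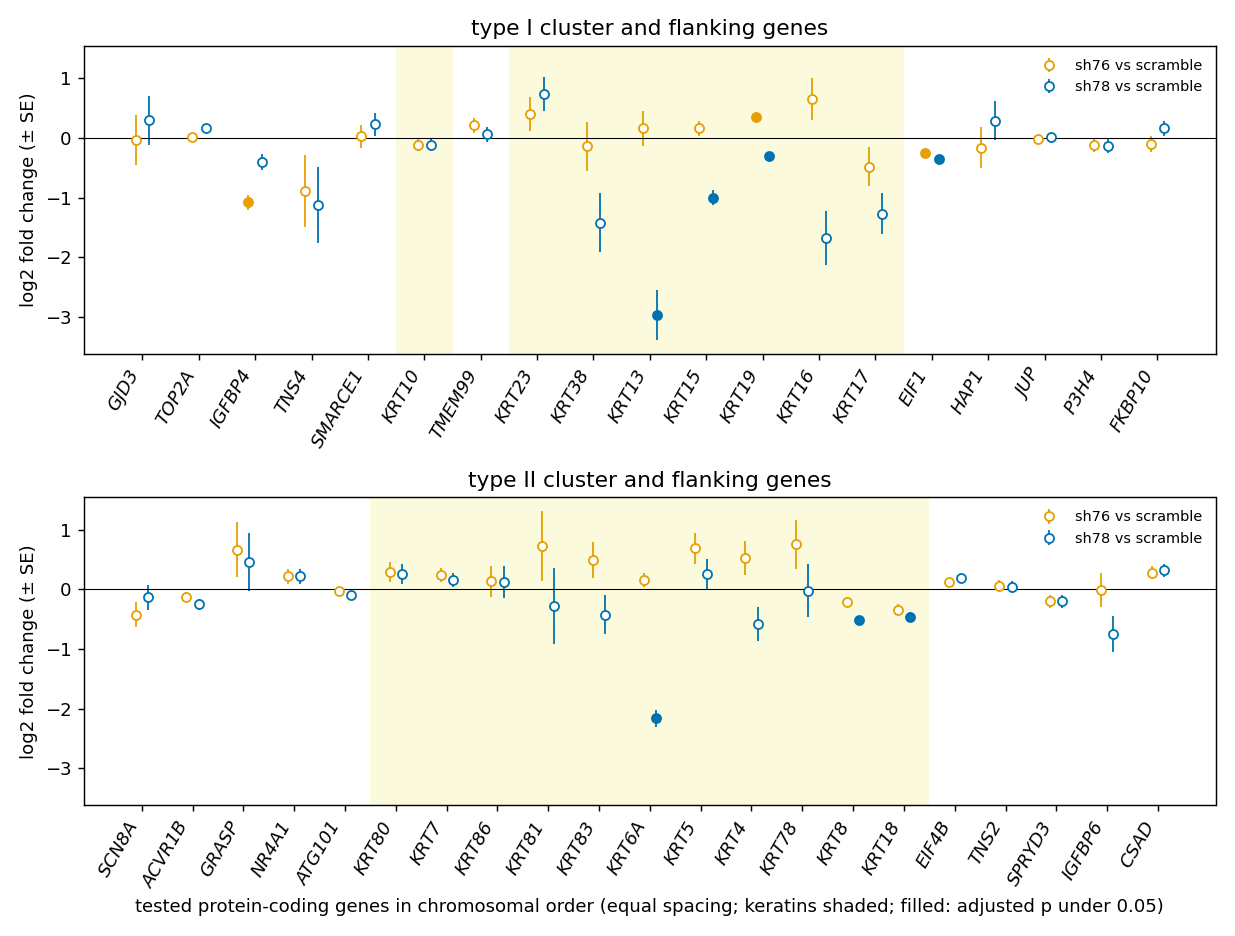
Log2 fold change (± SE) of each tested protein-coding gene in the keratin clusters and 5 genes on each side, in chromosomal order with equal spacing; keratins are shaded and filled points passed the adjusted p threshold. KRT18, a type I gene, appears in the type II panel because it lies beside KRT8, and the neighbours KRT13, KRT15 and KRT19 are filled below 0 for sh78. KRT13 passed the count filter only through the other groups.

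Genes that work with keratin filaments were examined from 4 lists. Of 15 other intermediate filament genes (vimentin, lamins, neurofilaments and the like) 9 were tested, and none was called in any comparison by edgeR. Their median log2 fold change was 0.03 with sh76 and 0.00 with sh78. With the block 2 were called higher with each hairpin and 1 lower with sh78. Of all genes, 20.4% were called by that fit with sh76 and 19.9% with sh78. Of 16 genes for proteins that anchor keratins to desmosomes and hemidesmosomes, 14 were tested and 1 was called with sh78, against 4.41% of all genes. This was COL17A1, the transmembrane collagen of hemidesmosomes, at 9.57 ± 0.727 CPM with scramble, 10.6 ± 3.16 with sh76 and 3.29 ± 1.1 with sh78. COL17A1 fell with sh78 by 1.55 on the log2 scale (SE 0.26, adjusted p 0.00437), and its log2 difference from sh76 was -1.71 (adjusted p 0.00297). The median of the 14 genes was -0.07 with sh78, and with the block 2 were called higher and 5 lower, against 19.9% of all genes called in either direction.

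Of 15 cornified envelope and barrier genes in the table, 6 had 0 counts throughout and 4 were tested. TGM1, the transglutaminase that cross-links the cornified envelope, was the 1 called, at 9.11 ± 2.5, 10.9 ± 1.04 and 3.92 ± 0.256 CPM. It fell with sh78 by 1.21 on the log2 scale (SE 0.20, adjusted p 0.00312), with a difference from sh76 of -1.47 (adjusted p 0.000916). Of all genes, 4.41% were called with sh78 and 3.7% for sh78 against sh76. With the block 2 of the 4 were called lower with sh78 and 1 higher with sh76. The shares of all genes called in either direction were 19.9% and 20.4%.

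All 24 genes on a list of transcription regulators known to act on keratin genes, a receptor gene among them, were tested. Of them 1 was called with sh76, 2 with sh78 and 3 between the hairpins, against 3.58%, 4.41% and 3.7% of all genes. With sh76, FOS, a subunit of AP-1, was the 1 called: it rose from 7.57 ± 0.44 to 12.3 ± 0.793 CPM (log2 0.70, SE 0.14, adjusted p 0.0109). With sh78, KLF5 and GRHL3, both regulators of epithelial genes, were called lower. KLF5 went from 137 ± 9.42 to 106 ± 2.56 CPM (log2 -0.38, SE 0.07, adjusted p 0.00618) and GRHL3 from 12.4 ± 1.06 to 8.59 ± 0.863 (log2 -0.53, SE 0.14, adjusted p 0.0438). Between the hairpins FOS (log2 -1.01, adjusted p 0.00106) and KLF5 (log2 -0.32, adjusted p 0.0182) were lower with sh78, and GLI2, a mediator of hedgehog signalling, was higher (log2 0.65, adjusted p 0.0366). The list's median was 0.09 with sh76 and -0.02 with sh78. With the block 7 were called higher and 1 lower with sh76, 3 higher and 4 lower with sh78, and 2 higher and 9 lower for sh78 against sh76. The shares of all genes called with the block were 20.4%, 19.9% and 18.3%.

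Of the 9 epithelial markers that are not keratins, 1 was called lower with each hairpin, against 3.58% and 4.41% of all genes called. With the block 7 were called lower and 1 higher with sh76, and 2 lower with sh78, against 20.4% and 19.9% of all genes called. EPCAM, an epithelial adhesion gene, went from 317 ± 8.6 CPM with scramble to 252 ± 11.4 with sh78 (log2 -0.33, SE 0.06, adjusted p 0.00387). PAX8, the lineage factor of this carcinoma, stood at 902 ± 53.3 with scramble, 744 ± 14.1 with sh76 (log2 -0.28, adjusted p 0.0196) and 960 ± 42.3 with sh78 (log2 0.09, adjusted p 0.504). The part of such shifts in the keratin results was not tested.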

How the data were processed

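Poly-A RNA was sequenced from 9 OVCAR3 libraries with a non-directional preparation, per the labels' protocols. The submitters' processing notes name HISAT2 2.0.5, featureCounts 1.5.0-p3 and hg38. The authors deposited raw counts per gene and FPKM values (counts scaled by gene length and library size), and both tables were used as deposited. All 58735 identifiers matched GENCODE 29. The filter filterByExpr (a minimum count of 10 and a minimum total of 15) passed 17023 genes. The test was edgeR 4.0.16 under R 4.3.3 (TMM factors, robust quasi-likelihood fit, 1 coefficient per group, all 9 libraries, 6 residual degrees of freedom). P-values were adjusted by Benjamini-Hochberg over all 17023 genes, and the common biological coefficient of variation was 10.4%. Scripts were tested on simulated data.

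Total counts of 14652965 to 21327562 set the precision. Within-group pairs of libraries differed beyond sampling noise (chi-square per degree of freedom 4.9 to 11.07). Same-numbered libraries of different groups deviated together (r 0.14 to 0.39 in 9 pairs, against -0.31 to 0.06 in 18 others), although no label says what the numbers mark. The number was taken as a block in an alternative fit only. The planned test, whose calls are the main ones, had no block, and the fit with the block leaves 4 residual degrees of freedom.

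The keratins and the other lists were chosen with earlier results of these data known. Every tested keratin is named. Those called in any comparison and the 5 highest by FPKM have values in each library. From the other lists genes called in a comparison were named. EPCAM, PAX8 and the endothelial genes come from the marker lists. KRT75, KRT40 and KRT17P1 were named after their counts were seen. Alternatives used DESeq2 1.42.0, limma 3.58.1 on log2(FPKM + 1) and log2(FPKM + 0.1), no filter, only the groups compared, each library left out, copies summed, and the length of the main transcript, the last added after the data were seen. Promoter motifs were not described.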

Additional observations from a re-analysis of the deposited data

Results flagged for a closer look

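Under the same contrast with scramble, the hairpins gave different values for 5 keratins by the direct test of sh78 against sh76 (edgeR's quasi-likelihood test with Benjamini-Hochberg adjustment). The log2 difference was -2.32 for KRT6A, -3.13 for KRT13, -1.16 for KRT15, -2.33 for KRT16 and -0.67 for KRT19. All 3 sh78 libraries were below all 3 sh76 libraries for each of these genes, and each was called without any single library. KRT13 and KRT16 passed the count filter only through the scramble and sh76 libraries, so their selection favoured a low sh78 value, and their lack of overlap and their calls are no sign of stability. KRT19 is the member whose comparisons with scramble were called in opposite directions. GPX3 itself was lower in the sh78 than in the sh76 libraries (log2 -0.86, adjusted p 0.0194), and its part in these differences was not tested. Groups of 3 are too small for the test for an outlying library.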

How the results depend on the processing

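Of 999 alternative values for single keratins, 907 kept their direction and side of the threshold, 45 passed it anew, 20 no longer passed and 27 changed sign. The keratins called with sh76, 1 as reported, numbered 2 by DESeq2, 4 without the count filter and 0 in each of the 3 fits of log2 FPKM. Those called with sh78 numbered 2 on log2 FPKM without a filter. For sh78 against sh76 they numbered 8 without the count filter and 3 on log2 FPKM without a filter. With the replicate block 10, 12 and 12 keratins were called, among 3467, 3388 and 3117 genes in all. Genes called numbered 1149, 1212 and 1125 without the count filter, and 121, 151 and 94 on log2 FPKM without one. The cause of these shifts was not tested.

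Leaving out each library gave 0 to 2, 4 to 7 and 5 to 7 called keratins and 237 to 655, 418 to 810 and 273 to 780 called genes. The lowest gene counts came without sh76 replicate 2, scramble replicate 2 and sh76 replicate 2. Called keratins were lowest without scramble replicate 2, sh76 replicate 2 or sh76 replicate 3 for sh76.

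In the order scramble, sh76, sh78, the ratio of type I to type II was 0.533, 0.562 and 0.521 from counts and 0.674, 0.724 and 0.66 by main transcript length. KRT8 to KRT18 was 2.56, 2.8 and 2.45 from counts and 2.13, 2.33 and 2.04 by main transcript. KRT7 to KRT19 was 0.805, 0.74 and 1.12, and 0.638, 0.587 and 0.885. With scramble, KRT6A to KRT16 was 27.5 from counts and 19.6 by main transcript, and KRT6A to KRT17 was 2.73 by main transcript. Leaving out a library, type I to type II ran over 1.12 to 1.13, 1.15 to 1.2 and 1.06 to 1.08. KRT8 to KRT18 ran over 1.18 to 1.21, 1.3 to 1.32 and 1.14 to 1.15, and KRT7 to KRT19 over 0.45 to 0.471, 0.407 to 0.444 and 0.634 to 0.644. KRT6A to KRT16 ran over 21.7 to 25.2, 14.6 to 18.2 and 13.2 to 22.9, and KRT6A to KRT17 over 4.32 to 4.62, 5.66 to 8.93 and 1.98 to 3.12.

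All sign changes were of log2 values that were not called. With a library left out, KRT86 ran from -0.11 to 0.37 and KRT13 from -0.14 to 0.43 with sh76, and KRT81 from -0.72 to 0.14 (0.10 without scramble replicate 3) with sh78. KRT78 reached 0.01, 0.09 and 0.01 on log2 FPKM (pseudocount 1, 0.1, and 1 without a filter), 0.03 with the replicate block, and -0.41 to 0.32 (0.13 and 0.19 between) with a library left out. For sh78 against sh76, KRT7 ran from -0.20 to 0.02, KRT80 from -0.17 to 0.10 and KRT10 from -0.04 to 0.05. KRT86 reached 0.02, 0.05 and 0.02 on log2 FPKM, 0.01 with the block, and -0.25 to 0.23 with a library left out.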
